A study of Mus musculus with 18 samples.

Results

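Lin28a, Lin28b, Trim71, Hmga2, Hmga1, Igf2bp1, Igf2bp2 and Igf2bp3 are the genes of the Lin28 and let-7 pathway followed here. The 8 genes were chosen by name, and a gene was measured where a probe set (a group of short probes for 1 transcript) carries its symbol and no other in the probe-to-gene table. By this rule 6 of the 8 genes were measured, with 19 of the 45037 probe sets tested and 6 of the 18193 genes with a probe set of their own. Hmga1 and Igf2bp2 have no such probe set and were not analysed here. Where a gene has several probe sets, the brightest on average stands for it, and the others are given beside it.

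LIN28 proteins bind the precursors of the let-7 microRNAs and keep them from being processed, and in the worm C. elegans their relative lin-28 sets the timing of early larval cell fates. Mature let-7 in turn represses mRNAs that carry matching sites, among them those of Lin28a, Lin28b, Trim71 and Hmga2, so that embryonic cells tend to hold high LIN28 and low let-7 while differentiated cells tend to hold the opposite. Trim71 (lin-41 in the worm), the chromatin protein Hmga2 and the mRNA-binding Igf2bp proteins are known from embryonic stem (ES) cells and from early neural progenitors, and most fall silent in mature tissues.

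The values come from 18 Affymetrix mouse expression arrays of HBG3 mouse ES cells differentiating into motor neurons, a single cell line that all stages share. ES cells (day 0), neural precursors (day 3), progenitor motor neurons (day 4) and postmitotic motor neurons (day 7) have 3 arrays each, while embryoid bodies have 4 arrays at day 2 and 2 after a further 8 h with retinoic acid (RA). ES cells were expanded on feeder cells or plated on gelatin for differentiation, were dissociated at day 0 to form aggregates, and received RA with a hedgehog agonist at day 2, so that days 3, 4 and 7 carry both agents. For the 8 h arrays the labels give RA alone, and since no array holds embryoid bodies cultured 8 h longer without RA, the agents and the added hours cannot be told apart in that comparison. The methods describe biological triplicates, RNA was amplified before hybridization, and each array holds the RNA of a mixed culture, so fewer cells of a type and less RNA per cell cannot be told apart.

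The arrays did not measure mature microRNAs, but let-7 is what ties these genes together, and its sequences show how alike its members are. Of the 11 mature let-7 and miR-98 names in the RefSeq table (build GRCm38.p6), 10 share the seed GAGGUAG, the bases 2 to 8 that pair with a target, and 11 of all 1679 mature names in the table carry that seed. They are shown with miR-125b-5p, the relative of the worm lin-4 microRNA, which is also known to act on Lin28a. The copies printed lie at chr13:48538239-48538260 (minus strand) for let-7a-5p, chr13:48536078-48536099 (minus) for let-7d-5p, chr9:106178846-106178867 (plus) for let-7g-5p, chrX:151913229-151913250 (plus) for miR-98-5p, chr3:140028281-140028304 (plus) for let-7j and chr9:41581940-41581961 (plus) for miR-125b-5p. Capitals mark the seed.
mmu-let-7a-5p: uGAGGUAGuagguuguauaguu
mmu-let-7d-5p: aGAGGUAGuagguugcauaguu
mmu-let-7g-5p: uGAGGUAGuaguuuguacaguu
mmu-miR-98-5p: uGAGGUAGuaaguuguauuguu
mmu-let-7j: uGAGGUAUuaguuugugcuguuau
mmu-miR-125b-5p: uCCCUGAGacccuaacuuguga
The first 4 carry the same seed in different surroundings. The seed of let-7j reads GAGGUAU and that of miR-125b-5p reads CCCUGAG, which also stands in miR-125a-5p.

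LIN28 proteins recognise the letters GGAG in the loop of let-7 precursors, and the hairpins differ in this. The count covers hairpins named Mirlet7 or Mir98 and leaves out let-7j and let-7k, whose loci are named Mir7j and Mir7k. Of these 12 hairpins, 9 hold GGAG, against 44.5% of all 1005 hairpins. Of the 11 with both arms placed, 8 hold it between the arms, and Mir98, Mirlet7b and Mirlet7c-2 hold it nowhere. One hairpin with the letters, Mirlet7g at chr9:106178840-106178927 (plus strand), and one without, Mirlet7b at chr15:85707319-85707403 (plus strand), are shown with GGAG in capitals. A match is a description of these letters and not a measured site.
Mirlet7g: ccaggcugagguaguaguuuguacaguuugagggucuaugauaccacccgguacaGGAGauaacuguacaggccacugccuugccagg
Mirlet7b: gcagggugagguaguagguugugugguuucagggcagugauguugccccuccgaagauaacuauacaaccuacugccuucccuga

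Signals are GCRMA values on the log2 scale, normalized by the authors across all arrays. Between 55.2% and 56.9% of probe sets on each array lay under the background level, set here at a log2 signal of 4, and arrays of 1 stage correlated at 0.967 to 0.995 over all probe sets. A gene was called where limma's adjusted p was under 0.01 and the change was at least 2-fold, the thresholds of the methods. At day 0, 8 of 8 pluripotent cell markers were above background, and at day 7, 5 of 6 motor neuron markers and 8 of 8 pan-neuronal markers were, while Chat, the acetylcholine-synthesising enzyme that defines mature motor neurons, was under it. Above background were also 5 of 8 pan-neuronal markers at day 0 and 4 of 8 pluripotent cell markers at day 7. Summed linear signals at days 0 and 7 were 4133 to 5785 and 38718 to 41921 for pan-neuronal markers. For pluripotent cell markers they were 43626 to 50818 and 130 to 175.

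Across the differentiation, the measured members stayed within the 2-fold limit or missed the p threshold until day 4, and 4 of 6 were called lower at day 7. Between day 2 and day 0, 0 of 6 members were called, where 3.83% of all genes were called in either direction (limma), and 2 members had an unadjusted p under 0.05. After 8 h of RA the count was 0 of 6, where 0.368% of all genes were called, and 0 members had an unadjusted p under 0.05. For day 3 against day 2 the count was 0 of 6 with 6.62% of all genes called, and for day 4 against day 3 it was 0 of 6 with 1.22% of all genes called, and 3 and 2 members had an unadjusted p under 0.05 in these comparisons. At day 7 against day 4, Lin28a, Trim71, Hmga2 and Igf2bp1 were called lower and 0 members higher, where 6.58% of all genes were called lower and 8.81% higher. At day 7 against day 0, Lin28a, Trim71 and Igf2bp1 were called lower and 0 members higher, where 13.9% of all genes were called lower and 14.3% higher. The median log2 fold change of the 6 members was 0.09, 0.02, 0.04 and -0.11 in the 4 earlier comparisons, -2.61 at day 7 against day 4 and -1.79 at day 7 against day 0, and the median of all genes was 0 in each.

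**Figure D1:**
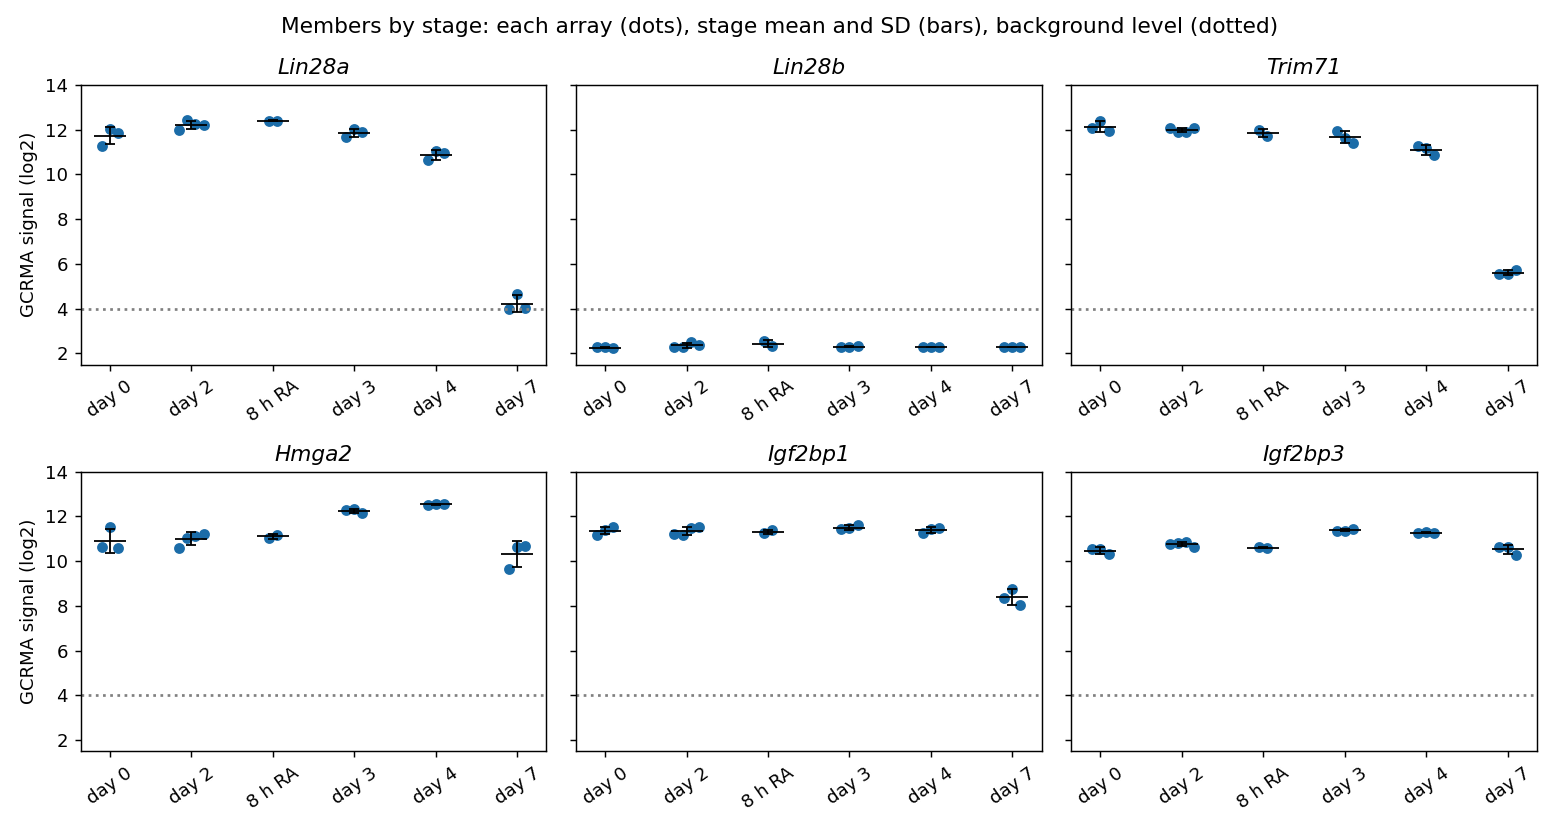
GCRMA signal (log2, vertical axis) of the brightest probe set of each of the 6 measured members at the 6 stages in time order (horizontal axis). Dots are arrays, bars are the stage mean with its SD, and the dotted line is the background level of 4. Lin28a and Trim71 lie above 10 up to day 4 and at 3.99 to 4.67 and 5.53 to 5.74 at day 7, and Lin28b lies under the background level on all arrays.

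Lin28a, the RNA-binding protein that blocks let-7 maturation, was high in ES cells and remained so through the first days of differentiation. Its signal was 11.29, 12.01 and 11.86 at day 0, 11.99, 12.41, 12.27 and 12.20 at day 2, 12.41 and 12.38 after 8 h of RA, 11.66, 12.02 and 11.88 at day 3, 10.63, 11.05 and 10.97 at day 4, and 3.99, 4.67 and 4.02 at day 7. Every day 4 array lay under every earlier one, and every day 7 array lay near or under the background level, far from all others. The order of the stage means was 8 h of RA, day 2, day 3, day 0, day 4 and day 7. Each of the first 3 steps in that order joins stages whose arrays overlapped, while day 4 was separate from day 0 and day 7 from day 4.

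The signal of Lin28a averaged 4.23 ± 0.39 at day 7 and 10.88 ± 0.22 at day 4 (SD, n = 3 each), a log2 fold change of -6.65 (SE 0.21, limma's adjusted p = 1.27e-10), or 101-fold lower. That was the 4th lowest log2 fold change of the 18193 genes. Against the 11.72 ± 0.38 of day 0 (n = 3), the level at day 7 was 180-fold lower, with a log2 fold change of -7.49 (SE 0.21, limma's adjusted p = 2.78e-11). A second probe set, 1437752_at, was at 3.55, 3.37 and 3.22 at day 7 and at 10.59, 10.79 and 11.11 at day 4. All 3 day 7 arrays were under the background level there, so the fold is a bound, at least 114-fold lower than day 4 and at least 237-fold lower than day 0.

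A smaller difference in Lin28a lay between day 4 and day 3, and its call depended on the probe set. The brightest probe set averaged 10.88 ± 0.22 at day 4 and 11.85 ± 0.18 at day 3 (SD, n = 3 each), a log2 fold change of -0.97 (SE 0.21, limma's adjusted p = 0.0430), or 1.96-fold lower and not called. Probe set 1437752_at was at 10.59, 10.79 and 11.11 at day 4 and at 11.93, 12.16 and 12.21 at day 3. Its log2 fold change was -1.27 (SE 0.14, limma's adjusted p = 3.18e-04), which was called. With the replicate number as a block, which pairs these stages, the brightest probe set had an adjusted p of 0.0131 over all 18 arrays and 0.00424 over the arrays of days 2, 3 and 4, and was called in neither, its change staying under 2-fold in both.

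The changes of Lin28a before day 4 were all under 2-fold and not called. Its log2 fold change at day 2 over day 0 was 0.50 (95% interval 0.06 to 0.93, limma's adjusted p = 0.229), and 3 of 4 day 2 arrays lay above every day 0 array. For 8 h of RA over day 2 it was 0.18 (95% interval -0.31 to 0.67, adjusted p = 1), and for day 3 over day 2 it was -0.36 (95% interval -0.79 to 0.07, adjusted p = 0.400). Each day 3 array lay under the day 2 array of the same replicate number, and the replicate block over days 2, 3 and 4 gave -0.37 with an adjusted p of 0.00442, against 0.294 with the block over all 18 arrays. The 3 intervals above do not reach a 2-fold change in either direction. The day 0 arrays carried fibroblast markers at summed linear signals of 564, 1294 and 3675, against 153 to 202 at day 2. How much of the day 0 values comes from feeder cells was not tested.

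Lin28b, the paralog that also blocks let-7, could not be followed. Its only probe set, 1430803_at, ranged from 2.24 to 2.55 over the 18 arrays and was under the background level on each of them. A signal this low at every stage carries no order, and no fold is given.

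Trim71, a ubiquitin ligase and RNA-binding repressor that is among the best known let-7 targets, was lowest at day 7 like Lin28a, but was highest at day 0. Its signal was 12.06, 12.40 and 11.96 at day 0, 12.06, 11.90, 11.89 and 12.09 at day 2, 11.98 and 11.74 after 8 h of RA, 11.93, 11.64 and 11.40 at day 3, 11.26, 11.19 and 10.86 at day 4, and 5.53, 5.57 and 5.74 at day 7. The stage means kept the order of time, with overlapping arrays between neighbours up to day 3 and none between day 3 and day 4 or between day 4 and day 7. All day 7 arrays remained above the background level.

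At day 7 the signal of Trim71 averaged 5.61 ± 0.11, against 11.10 ± 0.21 at day 4 (SD, n = 3 each). The log2 fold change was -5.49 (SE 0.15, limma's adjusted p = 2.42e-11), or 44.9-fold lower, the 14th lowest of all genes. Over day 0 it was -6.53 (SE 0.15, adjusted p = 3.46e-12), or 92.2-fold lower. The other probe set, 1453599_at, gave 67.3-fold lower against day 4 and 136-fold lower against day 0. Between day 4 and day 3 the log2 fold change was -0.56 (95% interval -0.88 to -0.23, limma's adjusted p = 0.131), which was not called although the arrays did not overlap.

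The promoters of Lin28a and Trim71, whose signals were both lowest at day 7, are shown from the RefSeq table (GRCm38.p6) as 250 bases before to 50 after the start. The window of Lin28a lies at chr4:134018767-134019066 and that of Trim71 at chr9:114564320-114564619, both on the minus strand, and 7 of the 8 genes have a promoter in the table. Capitals mark matches on either strand to GGGCGG (GC box, in 35.7% of 32851 promoters of this length), CCAAT (37.4%), TATAAA (13.6%), CACGTG (E-box, 7.15%) and ATGCAAAT (octamer, 1.74%).
Lin28a promoter: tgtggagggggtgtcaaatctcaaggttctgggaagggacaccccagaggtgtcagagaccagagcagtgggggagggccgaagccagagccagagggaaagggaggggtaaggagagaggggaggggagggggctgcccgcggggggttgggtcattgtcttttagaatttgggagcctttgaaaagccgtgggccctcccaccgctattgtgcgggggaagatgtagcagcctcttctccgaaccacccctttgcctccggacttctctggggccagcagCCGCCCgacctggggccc
Trim71 promoter: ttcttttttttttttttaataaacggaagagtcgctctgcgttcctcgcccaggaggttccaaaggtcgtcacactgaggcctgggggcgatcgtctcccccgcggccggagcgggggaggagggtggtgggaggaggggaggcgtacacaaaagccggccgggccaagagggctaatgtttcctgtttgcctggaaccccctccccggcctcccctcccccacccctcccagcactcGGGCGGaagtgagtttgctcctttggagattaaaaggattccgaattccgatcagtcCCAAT
Lin28a held 1 GC box and Trim71 held 1 GC box and 1 CCAAT, with no match to the other motifs in either window. Their GC content was 63.3% and 59.3%, where the median over all promoters was 52.7%.

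Hmga2, a chromatin protein of embryonic and progenitor cells whose mRNA carries several let-7 sites, followed another course, with its highest signals at days 3 and 4. The signal was 10.63, 11.53 and 10.59 at day 0, 10.59, 11.04, 11.14 and 11.23 at day 2, 11.04 and 11.17 after 8 h of RA, 12.27, 12.31 and 12.15 at day 3, 12.51, 12.55 and 12.55 at day 4, and 9.64, 10.63 and 10.69 at day 7. The arrays of days 3 and 4 lay above all others. Day 7 overlapped day 0, day 0 overlapped day 2, and day 2 overlapped the 8 h arrays.

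The signal of Hmga2 averaged 12.24 ± 0.09 at day 3 (n = 3) and 11.00 ± 0.28 at day 2 (n = 4), a log2 fold change of 1.24 (SE 0.27), or 2.37-fold. Limma's adjusted p was 0.0102, just over the threshold of 0.01. Probe set 1450780_s_at was at 11.28, 11.39 and 11.33 at day 3 and at 9.75, 9.99, 10.22 and 10.18 at day 2, with a log2 fold change of 1.30 (SE 0.24, limma's adjusted p = 0.00353), which was called. Probe set 1450781_at gave 1.73 (SE 0.44, adjusted p = 0.0297). With the replicate number as a block, the brightest probe set was called over all 18 arrays (log2 fold change 1.38, adjusted p = 0.00383) and not over the arrays of days 2, 3 and 4 (1.32, adjusted p = 0.0123).

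At day 7, Hmga2 averaged 10.32 ± 0.59, against 12.54 ± 0.02 at day 4 (SD, n = 3 each). The log2 fold change was -2.21 (SE 0.28, limma's adjusted p = 8.23e-05), or 4.64-fold lower. In a fit of the arrays of days 7 and 4 alone, the adjusted p was 0.0224 and the call was lost. Probe sets 1450780_s_at and 1450781_at were called as well, at 5.41-fold and 7.20-fold lower. Against day 0 the log2 fold change of the brightest probe set was -0.59 (95% interval -1.21 to 0.02, limma's adjusted p = 0.155), which was not called. A further probe set, 1446196_at, did not exceed 2.25 on any array and was not used for a direction.

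Igf2bp1, which binds mRNAs such as Igf2 and Myc and is itself a let-7 target, was level until day 4. The brightest probe set was at 11.18, 11.39 and 11.52 at day 0, 11.23, 11.19, 11.46 and 11.52 at day 2, 11.25 and 11.38 after 8 h of RA, 11.43, 11.46 and 11.62 at day 3, 11.27, 11.42 and 11.50 at day 4, and 8.38, 8.75 and 8.03 at day 7. All neighbours in the order of stage means overlapped until day 7, which lay apart.

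Its signal averaged 8.38 ± 0.36 at day 7 and 11.39 ± 0.12 at day 4 (SD, n = 3 each), a log2 fold change of -3.01 (SE 0.16, limma's adjusted p = 1.76e-08), or 8.06-fold lower. Over day 0 it was -2.98 (SE 0.16, adjusted p = 1.00e-08), or 7.88-fold lower. All 4 probe sets of Igf2bp1 were called lower in both comparisons. For the 3 that stayed above background, the folds were 8.06 to 8.96 against day 4 and 7.88 to 17.1 against day 0. Probe set 1418761_at was at 3.46, 3.24 and 4.03 at day 7, a mean under the background level, so its folds are bounds, at least 10.2-fold lower than day 4 and at least 40.3-fold lower than day 0. The probe sets were not alike before day 7. Probe set 1418761_at was at 6.62, 7.03 and 8.40 at day 4 and at 9.49, 8.87 and 9.64 at day 0, so that its day 4 arrays lay under its day 0 arrays, whereas the brightest probe set overlapped between those stages.

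Igf2bp3, the paralog of Igf2bp1, had a small peak at days 3 and 4 by its brightest probe set. Its brightest probe set, 1433732_x_at, was at 10.56, 10.56 and 10.30 at day 0, 10.79, 10.83, 10.84 and 10.65 at day 2, 10.62 and 10.59 after 8 h of RA, 11.34, 11.37 and 11.44 at day 3, 11.26, 11.30 and 11.27 at day 4, and 10.65, 10.65 and 10.27 at day 7. Days 3 and 4 lay above all other stages, and day 7 overlapped day 0. The suffix of this probe set marks probes that can also match other transcripts, so a paralog may share in the signal. Probe sets 1450687_at and 1422611_s_at spanned more, from 5.57 and 8.04 at day 0 to 7.70 and 9.66 at day 3. At day 2 over day 0 they were 2.43-fold and 2.31-fold higher (limma's adjusted p = 0.123 and 0.0167) and not called. The brightest was 1.23-fold higher there (0.0787). Probe set 1453957_a_at was highest after 8 h of RA.

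Igf2bp3 averaged 11.38 ± 0.05 at day 3 (n = 3) and 10.78 ± 0.09 at day 2 (n = 4), a log2 fold change of 0.60 (SE 0.09, limma's adjusted p = 7.88e-04), or 1.52-fold. At day 7 it averaged 10.52 ± 0.22, against 11.27 ± 0.02 at day 4 (SD, n = 3 each), a log2 fold change of -0.75 (SE 0.10, adjusted p = 7.80e-05), or 1.68-fold lower. Both passed the p threshold and missed the 2-fold limit, and 0 of its 6 probe sets were called at day 7 against day 4, where their log2 fold changes ran from -1.68 to -0.74. With the probe sets averaged, the value was -1.06 (adjusted p = 0.00112) and was called. Against day 0 the log2 fold change at day 7 was 0.05 (95% interval -0.16 to 0.26, limma's adjusted p = 0.935).

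**Figure D2:**
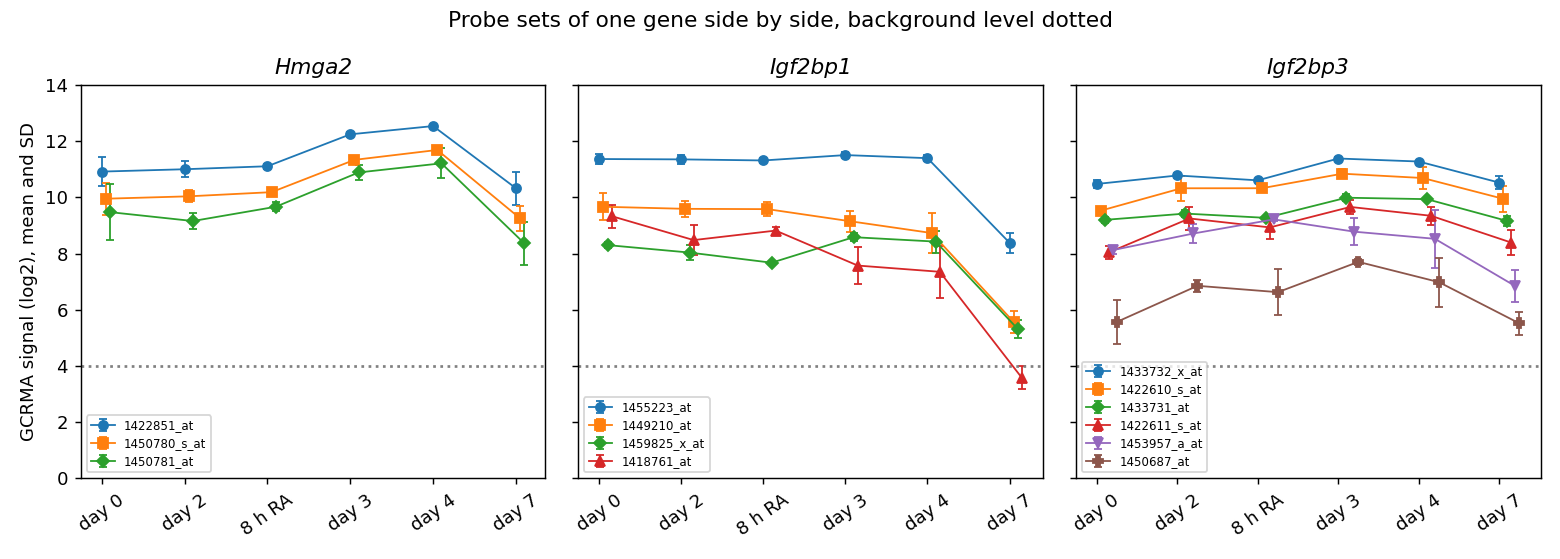
Stage means with SD (GCRMA signal, log2, vertical axis) of the probe sets of Hmga2, Igf2bp1 and Igf2bp3 above background, by stage in time order (horizontal axis), with the background level of 4 dotted. The 3 Hmga2 probe sets peak at day 4, the 4 Igf2bp1 probe sets are lowest at day 7, and 5 of the 6 Igf2bp3 probe sets are highest at day 3.

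Over all 19 probe sets, 11 were called lower at day 7 against day 4 and 0 were called higher. Of all 45037 probe sets, 11.5% were called there in either direction. Probe sets of the same gene are not separate results. The 11 are as follows. They were both of Lin28a, both of Trim71, 3 of 4 of Hmga2 and 4 of 4 of Igf2bp1. At day 7 against day 0, 8 of 19 were called lower, namely all those of Lin28a, Trim71 and Igf2bp1. Of all probe sets, 20.6% were called in either direction in that comparison. Over day 4, the day 7 values of the Lin28a and Trim71 probe sets had the lowest log2 fold changes, those of Igf2bp1 and Hmga2 came next, and those of Igf2bp3 were nearest to 0 among the probe sets above background.

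**Figure D3:**
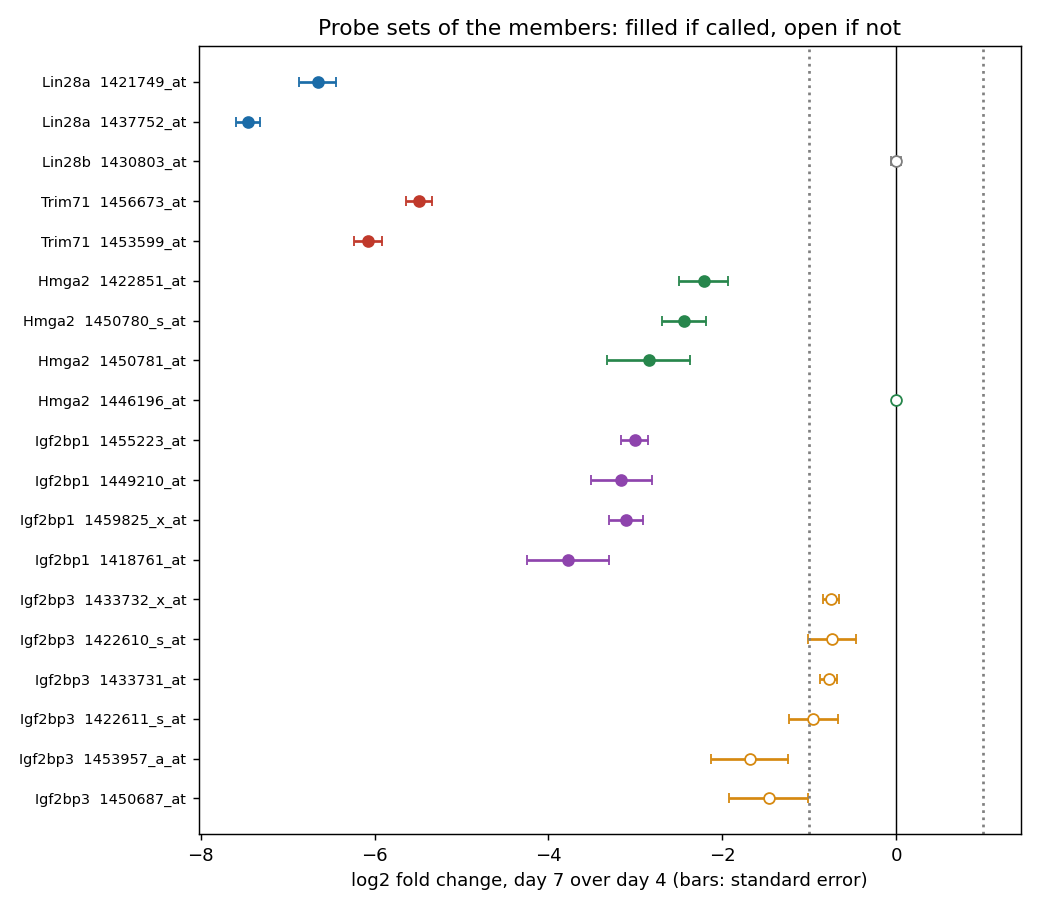
Log2 fold change at day 7 over day 4 (horizontal axis, bars are limma's standard error) of the 19 probe sets, grouped by gene down the page. Filled circles were called and open ones were not, and dotted lines mark 2-fold. Lin28a and Trim71 run from -7.45 to -5.49, Igf2bp1 from -3.77 to -3.01, the called Hmga2 probe sets from -2.85 to -2.21, and Igf2bp3 from -1.68 to -0.74.

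Across the 18 arrays, which share cell line and stage, Lin28a correlated with Trim71 at 0.989 and with Igf2bp1 at 0.977, and Trim71 with Igf2bp1 at 0.970. Hmga2 correlated with Igf2bp3 at 0.827 and with Lin28a at 0.465. These values describe 6 stages rather than 18 independent points, and the day 7 arrays weigh heavily in the first 3.

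Among 10322 genes with enough signal, the 3 most like Lin28a over the 18 arrays were Shcbp1 (0.990), Sall4 (0.987) and Mcm3 (0.986). For Trim71 they were Sall4 (0.996), Shcbp1 (0.994) and E2f8 (0.990). Sall4 is a zinc finger factor of pluripotent cells, Mcm3 a subunit of the replicative helicase and E2f8 a repressor of the cell cycle. The genes most like Igf2bp1 were Top2a, Mcm3 and Cenpe (0.982, 0.982 and 0.981), a topoisomerase, the helicase subunit and a mitotic kinesin. For Hmga2 they were Emilin2, Lhfpl2 and Neil3 (0.924, 0.917 and 0.912), and for Igf2bp3 4930426D05Rik, Pctp and Agtr1a (0.942, 0.927 and 0.926). A correlation takes no account of the size of a change. Shcbp1 averaged 10.30 at day 4 and 8.26 at day 7, where Lin28a averaged 10.88 and 4.23.

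Markers of dividing cells moved with the day 7 result. All 8 of 8 measured were called lower at day 7 against day 4, with summed linear signals of 8608 to 9109 at day 7, against 25983 to 36969 at day 4. Of 8 pan-neuronal markers 7 were called higher, and of 7 neural progenitor markers 5 were called lower. Of all genes, 8.81% were called higher and 6.58% lower in that comparison. Glial markers summed to 473, 838 and 2593 at day 7, against 228 to 311 at day 4, with Gfap and Mog under background. The part of the mix of cells in the values of the members was not tested.

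In the machinery around let-7, Khsrp, Ago2 and Xpo5 were called lower at day 7 than at day 4. In a list of 23 genes for small RNA processing and let-7 turnover, all 23 were measured, and these 3 were called lower and 0 higher, where 6.58% of all genes were called lower and 8.81% higher. The median log2 fold change of the list was -0.27. Khsrp, an RNA-binding protein that promotes let-7 processing, was 2.42-fold lower (10.65 ± 0.49 at day 7 and 11.92 ± 0.03 at day 4, SD, n = 3 each, limma's adjusted p = 0.00265), Ago2, the slicing Argonaute, was 2.17-fold lower (adjusted p = 0.00407), and Xpo5, the exporter of microRNA precursors, was 2.03-fold lower (adjusted p = 0.00808). These 3 calls were near the limits and rested on the choice of probe set. With probe sets averaged, the log2 fold changes of Xpo5 and Ago2 were -0.68 and -0.63, and with suffixed probe sets left out those of Xpo5 and Khsrp were -0.33 (adjusted p = 0.901) and -0.86 (0.154), and none of these was called. Khsrp lost its call without day 4 replicate 2 or day 7 replicates 3 or 4, with adjusted p up to 0.0137. Ago2 lost it without day 4 replicates 2 or 3 or day 7 replicates 4 or 5 (up to 0.0191), and Xpo5 kept it only in the fit without day 4 replicate 1 (up to 0.0337 in the others). Tut4, at 6.54 at day 7 and 7.97 at day 4, was 2.70-fold lower and not called (limma's adjusted p = 0.0369). With probe sets averaged, 5 genes were called, namely Ago4, Tut4, Khsrp, Hnrnpa1 and Msi1. The brightest probe set of Ago4 was higher at day 7 (8.20) than at day 4 (7.11), and those of the others were lower. At an adjusted p under 0.05, Tut4 and Trim25 were called beside Khsrp, Ago2 and Xpo5.

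Earlier in the course, Msi1, an RNA-binding protein of neural progenitors that has been found to act with LIN28 on let-7 family precursors, was called higher at day 3, at 12.05 ± 0.35 (n = 3) against 10.06 ± 0.25 at day 2 (n = 4). The fold was 3.97 with limma's adjusted p = 0.00122, and 1 of 23 was called, where 6.62% of all genes were. Msi1 lost its call with day 2 replicates 3 and 4 only (adjusted p = 0.0134), and Prkra, Ago4, Tut4 or Tnrc6c was called beside it in some alternatives. Ago1 was called 2.02-fold higher at day 4 against day 3 (adjusted p = 0.00444). Its call was lost without day 3 replicates 1 or 2 or day 4 replicates 2 or 3 (adjusted p up to 0.0280) and with the replicate block over days 2, 3 and 4 (0.0161). After 8 h of RA and at day 2 against day 0, limma called 0 genes of this list, where 0.368% and 3.83% of all genes were called. In these comparisons 2 and 5 genes of the list had an unadjusted p under 0.05.

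From ES cells to day 7, this list held 5 higher and 4 lower genes of 23, where 14.3% of all genes were called higher and 13.9% lower. The median log2 fold change of the list was -0.24. Trim25, a ligase that aids the tailing of let-7 precursors bound by LIN28, averaged 4.96 ± 0.56 at day 7 and 11.04 ± 0.55 at day 0 (SD, n = 3 each), or 67.6-fold lower (limma's adjusted p = 2.49e-07). Its stage means were 11.04, 9.27, 9.09, 8.06, 6.49 and 4.96 in time order, each under the one before it. Ago4 was 12.5-fold higher (adjusted p = 5.34e-05) and Msi1 6.77-fold higher (2.40e-05). Prkra was 3.07-fold higher (1.61e-04), Ago1 2.96-fold higher (4.18e-06) and Dicer1, which cuts the precursors, 2.14-fold higher (1.45e-04). Beside Trim25, Xpo5, Ago2 and Khsrp were called lower, by 5.22-fold, 3.18-fold and 2.31-fold. In a fit of the arrays of days 7 and 0 alone, Dicer1, Prkra, Msi1 and Khsrp lost their calls. Tut4 and Tut7, the enzymes that add uridines to let-7 precursors, averaged 6.54 and 9.35 at day 7 and 6.83 and 9.01 at day 0. They were not called in this comparison.

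Other genes known as let-7 targets did not share 1 course. Of 21 listed, 18 were measured, and at day 7 against day 4, 5 were called lower and 0 higher. Of all genes, 6.58% were called lower and 8.81% higher there. The median log2 fold change of the targets was -0.96. Nr6a1, a nuclear receptor of early embryos, averaged 6.68 ± 0.14 at day 7 and 10.44 ± 0.33 at day 4 (SD, n = 3 each), or 13.5-fold lower (limma's adjusted p = 7.29e-07). Igdcc3 was 6.01-fold lower (6.83e-06), the G1 cyclin Ccnd1 5.56-fold lower (7.40e-05), and Mycn and Cdc25a, which drive growth and division, 3.60-fold and 3.19-fold lower. The targets Myc and Nras were not called there. In a fit of the arrays of days 7 and 4 alone, only Nr6a1 of the targets was called.

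Targets were also called at day 3, Igdcc3 among them. At day 3 against day 2, 4 of 18 were called higher and 0 lower, where 6.62% of all genes were called in either direction. The median of the targets was 0.38. The replicate block over all 18 arrays added Arid3b, which was lower at day 3 (6.94 ± 0.39, n = 3, and 8.32 ± 0.59 at day 2, n = 4). Ccnd2, another G1 cyclin, averaged 13.35 ± 0.07 at day 3 (n = 3) and 8.48 ± 0.53 at day 2 (n = 4), or 29.2-fold higher (limma's adjusted p = 1.08e-04). Igdcc3 was 4.37-fold higher (7.75e-05), Tgfbr1, a receptor for TGF-beta, 3.31-fold higher (1.36e-04), and Plagl2 5.23-fold higher (0.00674). The call of Plagl2 held in only 1 of 7 fits without 1 array, that without day 2 replicate 4, and its adjusted p reached 0.0402. A fit of the arrays of days 3 and 2 alone called only Ccnd2 and Igdcc3 of the targets.

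At day 2 against day 0, 2 of these targets were called, where 3.83% of all genes were. Igdcc3 was 4.77-fold higher (limma's adjusted p = 8.17e-05). Prdm1, a repressor that acts in the germ line and in B cells, was at least 5.77-fold lower (adjusted p = 4.60e-04). Its day 2 mean, 3.15 ± 0.90, was under the background level. After 8 h of RA, Mycn was 3.18-fold lower than at day 2 (10.39 ± 0.55, n = 2, and 12.06 ± 0.36, n = 4, limma's adjusted p = 0.00970). The call of Mycn was lost without day 2 replicates 1, 2 or 4 or without 8 h replicate 1, with adjusted p up to 0.142. At day 4 against day 3, limma called 0 of 18, where 1.22% of all genes were called, and 5 had an unadjusted p under 0.05. At day 7 against day 0, 4 were called higher and 6 lower, where 14.3% of all genes were called higher and 13.9% lower. The median of the 18 was -1.03. Among the called targets were Mycl, 8.00-fold higher, Nr6a1, 9.26-fold lower, and Prdm1, at least 5.77-fold lower with all day 7 arrays under background. The size for Mycl depended on the probe set, since its log2 fold change of 3.00 was 1.06 with probe sets averaged (adjusted p = 0.0313) and the call was lost, and it was 2.34 without day 0 replicate 2.

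**Figure D4:**
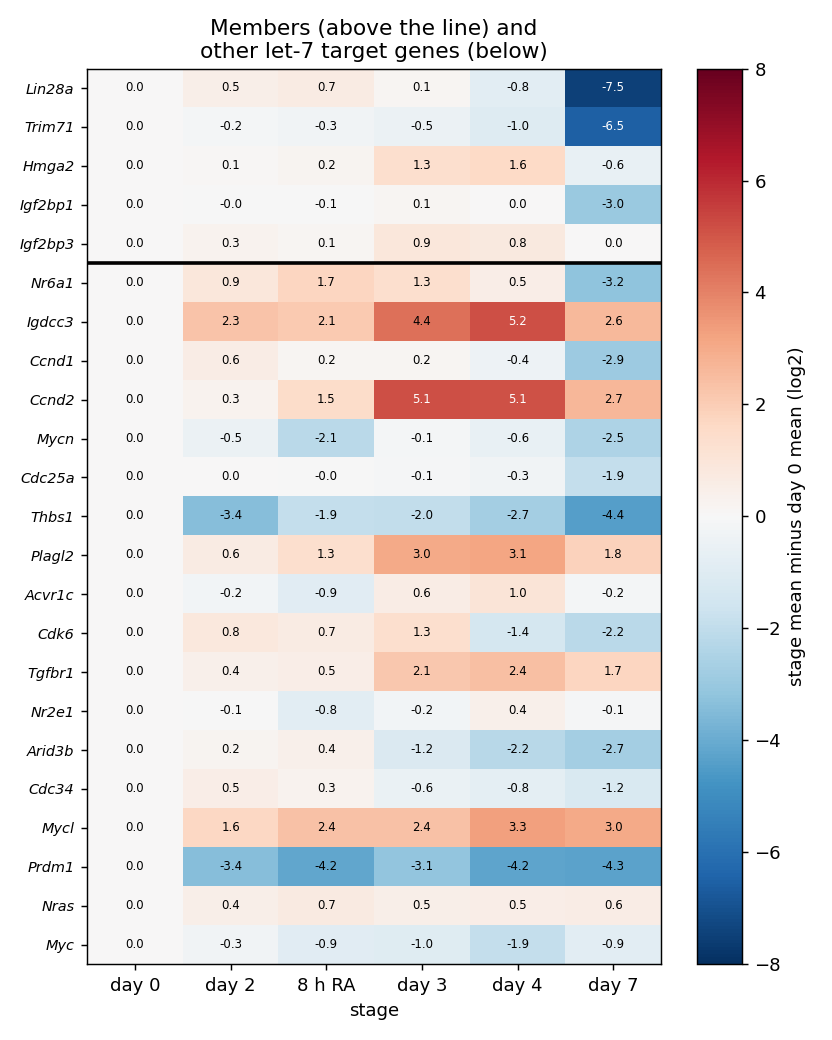
Stage mean minus day 0 mean (log2, colour and printed value) of 5 members above the line and 18 other let-7 target genes below it, with stages in time order across. Target genes are sorted by their difference between day 7 and day 4. Lin28a and Trim71 stand out at day 7, Igdcc3 and Ccnd2 are high at days 3 and 4, and a value of a gene near the background level, such as Prdm1 at day 7, is no measured size.

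The insulin-like growth factor (IGF) genes, whose mRNAs the Igf2bp proteins bind, were all measured, 8 of 8. At day 7 against day 4, 2 were called higher and 0 lower, where 8.81% of all genes were called higher and 6.58% lower. Igf2, the ligand, averaged 10.31 ± 0.78 at day 7 and 4.57 ± 1.71 at day 4 (SD, n = 3 each), or 53.3-fold higher (limma's adjusted p = 0.00113), while Igf2bp1 was 8.06-fold lower there. A link between Igf2 and Igf2bp1 was not tested. The log2 fold change of Igf2, 5.74, was 2.87 with probe sets averaged and 6.72 without day 4 replicate 3. Its stage means in time order were 8.09, 4.55, 5.41, 6.53, 4.57 and 10.31, with day 0 the next highest stage after day 7. Irs1, an adaptor of the receptor, was 2.92-fold higher (adjusted p = 0.00324) and lost its call without day 4 replicates 1 or 3 or day 7 replicates 3 or 4 (adjusted p up to 0.0174).

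At day 3 against day 2, the receptor Igf1r was called 2.24-fold higher (limma's adjusted p = 0.00312), though with probe sets averaged its log2 fold change was 0.45 (adjusted p = 0.0720) and not called, and the adaptor Irs4 at least 2.09-fold lower (0.00313), with its day 3 arrays under background. With the replicate block over days 2, 3 and 4 neither was called (adjusted p = 0.0519 for both). Without 1 array, Igf1r kept its call only in the fits without day 2 replicates 1 or 2, and Irs4 only in those without day 2 replicates 1, 2 or 3, with adjusted p up to 0.0168 and 0.0151. At day 7 against day 0, Irs1 was 10.1-fold higher, Igf2r, which clears IGF2 from the cell surface, 2.88-fold lower, and the insulin receptor Insr 3.15-fold higher. The call of Insr held only without day 0 replicate 1 (adjusted p up to 0.0233 in the other fits), and with probe sets averaged its log2 fold change was 0.49 (0.0172) and not called.

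Of 7 listed host transcripts of let-7 and miR-125, 1 was measured. Mir99ahg, whose locus holds Mirlet7c-1 and Mir125b-2, had stage means of 4.43, 4.16, 3.23, 5.26, 6.31 and 6.89 in time order and was called by limma in 0 of 6 comparisons, with an unadjusted p under 0.05 in 1, day 7 against day 0. All 5 listed mouse relatives of other timing genes of the worm were measured. Zfp362, related to the zinc finger gene lin-29, was called higher at day 3 than at day 2 (8.75 ± 0.12, n = 3, and 6.66 ± 0.32, n = 4), by 4.28-fold (limma's adjusted p = 1.18e-05), and was 12.5-fold higher at day 7 than at day 0 (1.63e-08). Per2, related to lin-42, passed the thresholds in 3 comparisons, but its stage means of 2.35 to 3.64 were all under the background level, so it has no measured direction.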

How the data were processed

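Each array holds the amplified RNA of 1 sample. Per probe set, the authors deposited a log2 signal that GCRMA had background-adjusted, quantile normalized over the whole set of arrays and summarized. The versions of GCRMA and limma that they used are not given in the sources used here. Values were used as deposited, 64 control probe sets of 45101 were left out and 45037 were tested. Symbols came from the platform annotation, which gives 1 symbol to 34945 of them, several to 932 and none to 9160.

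Stages were compared in R 4.3.3 with limma 3.58.1 (lmFit, then eBayes), using 6 stage means on all 18 arrays, 12 residual and 0.515 prior degrees of freedom, and Benjamini-Hochberg adjustment over all 45037 probe sets. Arrays of a stage are separate samples per the labels, and the number of arrays limits the precision. Near the lowest values the spread is compressed, so standard errors and p-values can be too small. A fold against a stage with a mean log2 signal under 4 is a bound with that mean set to 4. Intervals are 95% intervals of the fit.

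The 8 genes, the pathway and marker lists and the rule for named genes (up to 3 called members per list and comparison with the largest changes) were chosen with earlier results of these data known. Some genes are named beyond this rule. Among them are Dicer1, Prkra, Tgfbr1 and Cdc25a, for which no fit without 1 array is given. Likeness was Pearson's correlation over 18 arrays among genes reaching a log2 signal of 6. Alternatives were other moderation, filters, normalization, probe set rules, replicate blocks and left-out arrays. Leaving out probe sets whose names end in an s, x or a suffix was chosen after the data were seen. To see whether a shared replicate number pairs arrays, their deviations from stage means were correlated, which gave 0.48, 0.35 and 0.48 between days 3 and 2 and 0.64, 0.42 and 0.75 between days 4 and 3. The values were 0.21, -0.20 and -0.13 between days 2 and 0 and -0.22 and -0.45 for the 8 h arrays, which were not treated as paired. Scripts were tested on simulated data. Figures were drawn in matplotlib 3.10.9 under Python 3.11.15.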

Additional observations from a re-analysis of the deposited data

How the results depend on the processing

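The calls of Lin28a, Trim71 and Igf2bp1 at day 7 held under each alternative run, against day 4 and against day 0. Hmga2 at day 7 against day 4 was lost in 1 alternative, the fit of those arrays alone. Day 3 against day 2 gave 1 called member (Hmga2) in place of 0 with dim probe sets left out, trend and robust moderation, probe sets averaged, any probe set of the gene, an adjusted p under 0.05, array weights, or the replicate block over all 18 arrays. Day 4 against day 3 gave 1 (Lin28a) with probe sets averaged or any probe set of the gene. The cause was not tested.

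The block gave 0 members in day 2 against day 0, 8 h of RA against day 2 and day 4 against day 3, and 0 for day 3 against day 2 over the arrays of days 2, 3 and 4. It changed the calls of the listed genes Prkra, Arid3b, Irs1, Irs4, Igf1r and Per2 at day 3, Ago1 at day 4, Mycn after 8 h of RA (adjusted p = 0.0349) and Per2 at day 2 (0.0102). No paired analysis was possible for day 7 because it shares 1 replicate number with days 0 and 4.

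Small uncalled log2 values changed sign. Hmga2 at day 2 over day 0 was -0.036 with probe sets averaged, -0.054 with the replicate block over all 18 arrays, -0.10 with day 2 replicates 1 and 2 only, and -0.080 to 0.39 without 1 array. Igf2bp1 there was 0.0073 after a second quantile normalization, 0.062 median centred, 0.051 with array weights, 0.13 with day 2 replicates 3 and 4 only, and -0.10 to 0.066 without 1 array. For 8 h of RA over day 2, Hmga2 was -0.080 with day 2 replicates 3 and 4 only and -0.030 to 0.18 without 1 array. Igf2bp1 was 0.035 with the block over all 18 arrays, 0.10 with day 2 replicates 1 and 2 only, and -0.10 to 0.024 without 1 array. At day 3 over day 2 Igf2bp1 was -0.16 with probe sets averaged. At day 7 over day 0 Igf2bp3 was -0.021 median centred, -0.093 with probe sets averaged, -0.039 with suffixed probe sets left out, and -0.038 to 0.18 without 1 array.

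Without 1 array, the counts of members called did not change in any comparison. Of the listed genes' values under all alternatives, 489 kept their call and 108 lost it. Fits of the 2 compared stages alone, which rest on fewer arrays, ended the calls of Igdcc3, Prdm1 and Per2 at day 2, Mycn after 8 h of RA, Plagl2, Igf1r, Irs4 and Per2 at day 3, Ago1 at day 4, Xpo5, Ago2, Khsrp, Ccnd1, Igdcc3, Igf2 and Irs1 at day 7 against day 4, and Msi1, Mycl, Igf2r and Insr at day 7 against day 0 (adjusted p = 0.0121 to 0.617). They also ended the calls of Tgfbr1 at day 3 and of Mycn and Cdc25a at day 7 against day 4. At day 7 against day 0 those of Prkra, Dicer1, Khsrp, Ccnd1, Ccnd2 and Arid3b were ended as well. Signals under background limit Lin28b, 1 probe set each of Hmga2 and Igf2bp1 and the day 7 folds of Lin28a. With probe sets averaged, some called log2 values moved by over 1.5 times in fold and kept their call: Igdcc3 at days 2 and 3 (1.21 and 1.43), Plagl2 (1.71) and Irs4 (-1.41) at day 3, Nr6a1 at day 7 against day 4 and day 0 (-1.99 and -1.57), Igf2 at day 7 against day 4 (2.87), and Trim25 (-4.77), Msi1 (1.15) and Igf2bp1 (-3.95) at day 7 against day 0. Mycn after 8 h of RA was -1.09 and lost its call.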
